A study of Mus musculus with 24 samples.

Results

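Interferon-stimulated genes are the genes that cells switch on when they sense interferon, and a list of 40 named members was followed here across 24 Affymetrix whole-transcript arrays. A member was read from the probe set annotated to its symbol alone, taking the brightest per gene over the arrays. Such a probe set existed for 36 of the 40 members, out of 19938 genes measured that way. Irgm2 and Igtp share 1 probe set, Gbp2 shares its probe set with Gbp2b, and Ifi44 matched none, so these 4 members were left out of every count.

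Total RNA came from D3 mouse embryonic stem cells carrying either a scrambled sequence (siSCR) or a knockdown of Prmt1 (siPRMT1), the main enzyme of asymmetric arginine methylation. Each line was taken in 4 states with 3 arrays each: undifferentiated cells, day 4 embryoid bodies grown as aggregates without LIF, and embryoid bodies given DMSO or 5 micromol all-trans retinoic acid (ATRA) for 12 h. All cells had been grown on gelatin without feeder cells for at least 3 passages. The labels call the arrays biological replicates without saying whether separate cultures were used, nor whether a line is 1 clone, so p-values measure the spread between these samples.

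Interferon binds cell-surface receptors whose Janus kinases activate transcription factors, among them STAT2, which acts with IRF9 in the factor ISGF3. ISGF3 binds interferon-stimulated response elements, built from repeats of GAAA, and switches on genes that block viral entry, translation, replication and release. Pluripotent cells are known for a weak response to interferon and for a basal level of some of these genes.

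The deposited log2 values ranged from 2.14 to 14.5 and array medians from 7.47 to 7.67. Prmt1 was lower in the siPRMT1 line in all 4 states, with a log2 difference of -1.37 in undifferentiated cells, -0.63 at day 4, -1.11 with DMSO and -1.45 with ATRA (limma, adjusted p from 4.99e-14 to 3.20e-07). The 6 siSCR arrays of DMSO and ATRA stood apart from the other 18 on the first principal component, which held 52.2% of the variance, at 50.1 to 61.2 against -26.8 to -9.44. The labels name no batch, so in comparisons that set these 6 arrays against others, a batch and the group cannot be told apart.

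RefSeq promoters (GRCm38.p6) were at hand for 32 of the 40 members. The core of the interferon-stimulated response element, searched on both strands as GAAA followed after any 2 bases by a second GAAA, lay within the 250 bases before a start site in 13 of them, or 40.6%, against 3.46% of the 27025 genes with a promoter. TTCNNNGAA, the core of the sites bound by STAT dimers and its own reverse complement, lay there in 9 members, or 28.1%, against 8.13% of genes. A match is a description of the letters and not of binding. The 150 bases before the start of 5 members are shown because these genes carry the same core yet differ in the arrays below. Ifit1, Trim30a and Irgm1 fell with the knockdown in undifferentiated cells, Rsad2 did not pass the test and Bst2 rose. Capitals mark this core or its reverse complement, and each sequence reads 5′ to 3′ toward the gene. Ifit1 is at chr19:34640739-34640888 (plus strand), Trim30a at chr7:104465194-104465343 (minus strand), Irgm1 at chr11:48871421-48871570 (minus strand), Rsad2 at chr12:26456453-26456602 (minus strand) and Bst2 at chr8:71537473-71537622 (minus strand).
Ifit1: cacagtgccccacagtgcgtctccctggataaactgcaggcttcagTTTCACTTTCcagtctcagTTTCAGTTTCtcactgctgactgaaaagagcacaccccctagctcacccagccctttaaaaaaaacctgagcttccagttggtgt
Trim30a: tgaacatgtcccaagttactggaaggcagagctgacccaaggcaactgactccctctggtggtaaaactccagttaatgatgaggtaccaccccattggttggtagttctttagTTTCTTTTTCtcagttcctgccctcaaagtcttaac
Irgm1: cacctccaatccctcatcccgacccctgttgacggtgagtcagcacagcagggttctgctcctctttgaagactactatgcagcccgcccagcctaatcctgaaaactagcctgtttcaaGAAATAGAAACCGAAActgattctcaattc
Rsad2: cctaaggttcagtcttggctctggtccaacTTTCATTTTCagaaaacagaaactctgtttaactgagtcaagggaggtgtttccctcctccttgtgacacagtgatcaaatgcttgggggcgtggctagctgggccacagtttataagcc
Bst2: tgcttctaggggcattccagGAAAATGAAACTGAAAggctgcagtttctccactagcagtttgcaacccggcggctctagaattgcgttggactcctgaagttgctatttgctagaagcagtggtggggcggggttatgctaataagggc
The matches of Irgm1 overlap each other, as do those of Bst2, and the latter also overlap a TTCNNNGAA match. They lay 24 to 15 and 30 to 21 bases before the start of Irgm1, and 85 to 76 and 104 to 95 bases before that of Ifit1. Among the 10 measured members with the core, 5 fell with the knockdown in undifferentiated cells, and among the 18 with a promoter lacking it, 11 fell. Of all genes 11.2% were lower. Falls were thus seen both with and without the core. This split leaves out 8 members with no promoter at hand. Of these Oas2, Mx2, Usp18, Parp9, Parp14 and Rtp4 fell, and Mx1 and Dhx58 were not called. Whether the core goes with the fall was not tested.

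The members were highest in undifferentiated siSCR cells. The group mean was highest there in 25 of the 36 members and lowest there in 1. The share of all genes with their highest mean in this group is not given here. Averaged as the deviation of each member from its own 24-array mean, the list read 0.81 ± 0.047 (SD, n = 3) in undifferentiated siSCR cells and 0.41 ± 0.023 in undifferentiated siPRMT1 cells. The 6 embryoid body groups lay between -0.16 and -0.24. The ranges of these 2 undifferentiated groups did not overlap each other or any embryoid body group, while neighbours among the embryoid body groups did overlap. In bulk RNA, fewer cells of a type and less RNA per cell cannot be told apart.

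**Figure D1:**
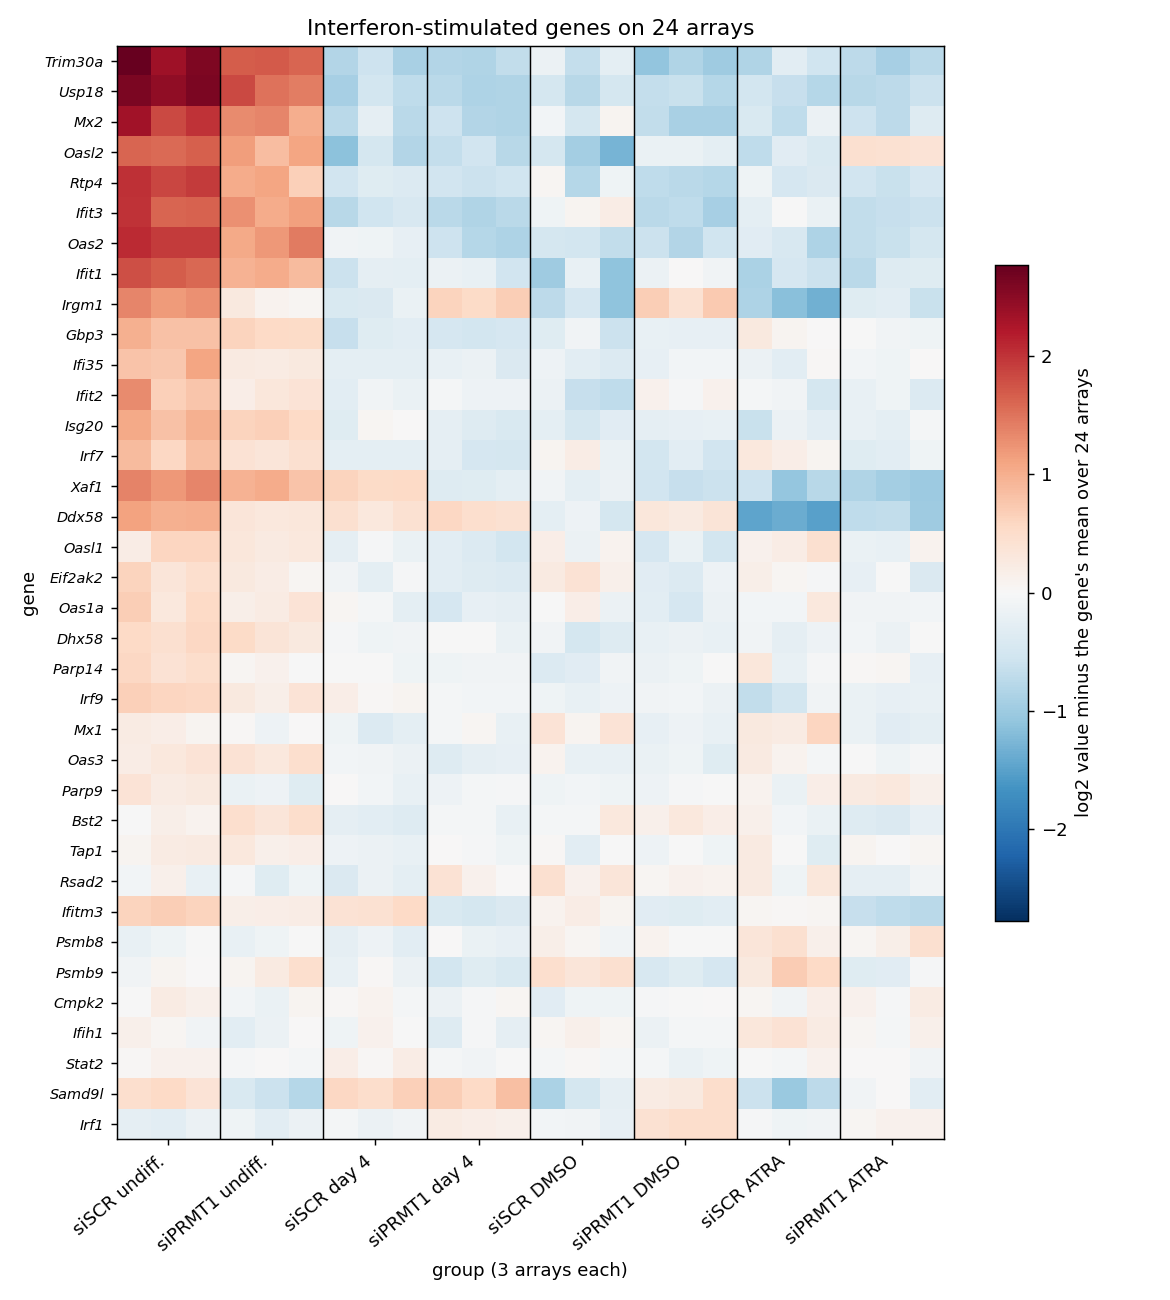
Log2 value of each of the 36 measured members (rows, ordered by the change on embryoid body formation in the siSCR line) on each of 24 arrays (columns, 3 per group), minus the member's mean over the arrays. The undifferentiated siSCR columns are the reddest, the undifferentiated siPRMT1 columns are weaker, and most embryoid body columns lie below 0.

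Markers of fibroblasts and feeder cells moved in the same way. All 18 listed markers were measured, and their mean deviation was 1.03 to 1.07 in undifferentiated siSCR cells, 0.609 to 0.659 in undifferentiated siPRMT1 cells and -0.432 to -0.0244 in the embryoid body groups. With the knockdown in undifferentiated cells 12 of the 18 fell, among them S100a4 by 1.01, Prrx1 by 1.01, Acta2 by 0.96 and Thy1 by 0.83 on the log2 scale. On embryoid body formation 15 of 18 fell in each line, against 13.7% of all genes in siSCR and 18.4% in siPRMT1 cells. Of 8 embryonic stem cell markers 4 rose with the knockdown in undifferentiated cells, and of 8 endoderm markers 2 rose. With that knockdown 11.2% of all genes were lower and 7.63% higher. The 8 macrophage markers stayed between -0.114 and 0.0938 in undifferentiated cells. Log2 intensities have no true 0, and the part of these markers in the results on interferon-stimulated genes was not tested.

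**Figure D2:**
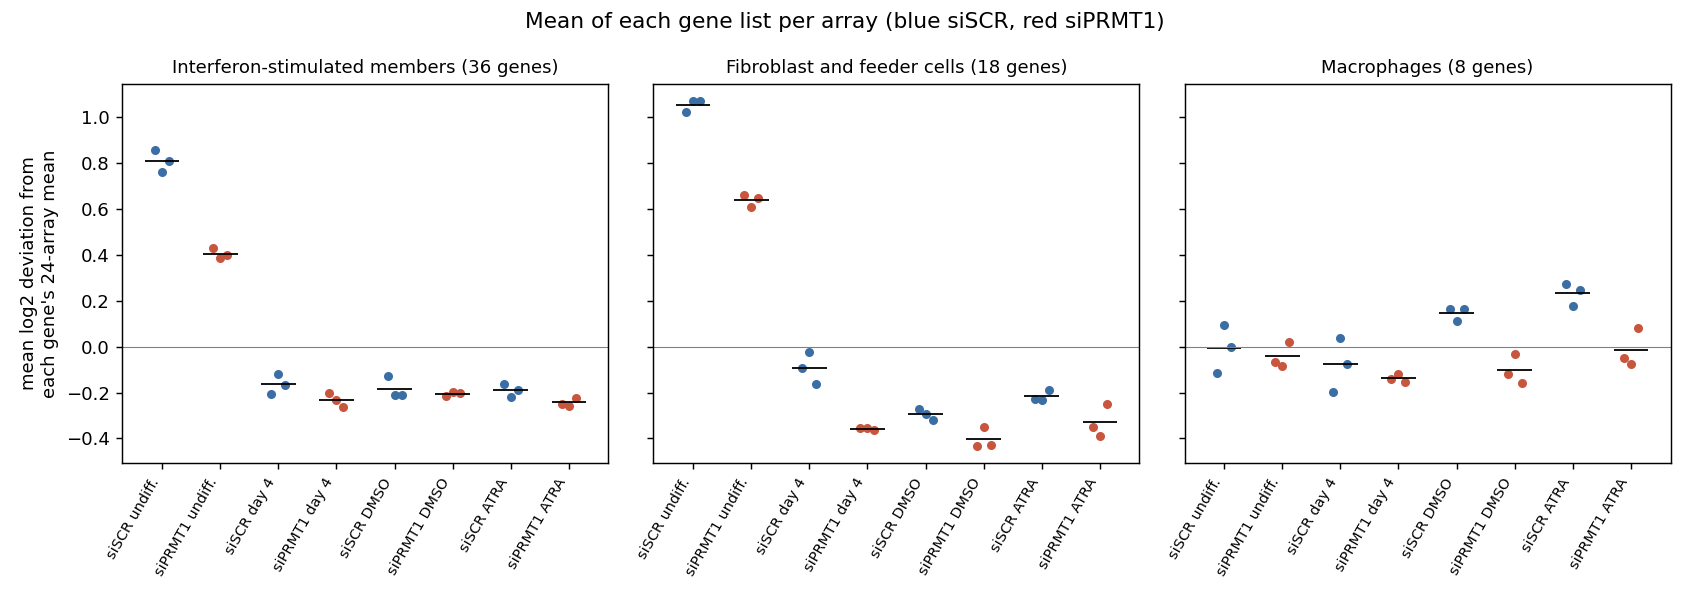
Mean log2 deviation from each gene's 24-array mean (y axis) per array for the 36 members, the 18 fibroblast and feeder markers and the 8 macrophage markers, by group; blue is siSCR, red siPRMT1 and bars are means of 3 arrays. Members and fibroblast markers are both highest in undifferentiated siSCR cells, and macrophage markers lie near 0 there.

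The knockdown was first compared in undifferentiated cells. Of the 36 members, 22 fell, 1 rose and 13 did not pass limma at adjusted p under 0.05, against 18.8% of all genes called in either direction, 11.2% lower and 7.63% higher. The median log2 difference of the members, siPRMT1 minus siSCR, was -0.36, against 0.0061 over all genes. The 3 IFIT genes fell, as did 4 of 7 genes of the OAS, PKR and RNA decay group. So did 5 of 9 genes listed as blocks to virus entry, replication and release, with Trim30a counted in that list. None of the 3 members that supply peptides to MHC class I was called, with Tap1 at 0.02 ± 0.105 (SE) and Psmb9 at 0.28 ± 0.109. Of 7 measured genes of MHC class I presentation outside the members, 3 fell and none rose, with a median of -0.23.

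In each comparison of 2 groups, the members detailed with the largest changes were picked from those called whose groups do not overlap. Their separation follows from that choice. Irgm1, a GTPase that acts on autophagy and vacuolar pathogens, changed most. It read 9.68, 9.52 and 9.61 on the siSCR arrays and 8.60, 8.43 and 8.40 on the siPRMT1 arrays, so that the groups lay far apart. The difference was -1.13 ± 0.138 (SE; limma adjusted p 6.77e-06), which left 45.8% of the siSCR level. Samd9l, a restriction factor that acts on translation, read 7.59, 7.66 and 7.49 against 6.70, 6.52 and 6.32. Its groups were also separate, at a difference of -1.07 ± 0.137 (adjusted p 1.09e-05). Rtp4, an interferon-inducible antiviral protein, read 9.10, 8.91 and 9.02 against 8.09, 8.17 and 7.74, at -1.01 ± 0.151 (adjusted p 5.73e-05). These 3 members were the ones at least 2-fold lower.

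Usp18 removes ISG15 from proteins and holds back signalling at the receptor. It read 10.19, 10.04 and 10.19 in siSCR cells and 9.42, 9.10 and 9.01 in siPRMT1 cells, at -0.97 ± 0.111 (adjusted p 3.01e-06). Trim30a, a restraint on inflammatory signalling, read 9.74, 9.32 and 9.55 against 8.65, 8.68 and 8.59, at -0.90 ± 0.134 (adjusted p 5.85e-05). The arrays of each gene did not overlap between lines. Mx2, a dynamin-like GTPase against viruses, read 8.42, 7.93 and 8.09 against 7.40, 7.44 and 7.10, at -0.83 ± 0.169 (adjusted p 0.00127). Oas2 makes 2-5A, the messenger that activates RNase L, and it read 10.35, 10.23 and 10.23 against 9.35, 9.50 and 9.73, at -0.75 ± 0.119 (adjusted p 0.000116). Ifit1, which binds foreign RNA lacking cap methylation, read 8.60, 8.48 and 8.41 against 7.78, 7.84 and 7.67, at -0.73 ± 0.176 (adjusted p 0.00513). That no siPRMT1 array reached the lowest siSCR array in these genes follows from how they were picked.

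The other members that fell were smaller. Their differences lay between -0.72 for Ddx58, the RNA sensor RIG-I, and -0.29 for Eif2ak2, the kinase PKR. They included Ifi35 at -0.63, Ifit2 at -0.62, Ifit3 at -0.61, Oasl2 at -0.58, Parp9 at -0.51, Ifitm3 at -0.46 and Parp14 at -0.44. Irf7 at -0.37 and Irf9 at -0.34 fell among the transcription factors, while Irf1 at 0.05 ± 0.0574 and Stat2 at -0.12 ± 0.0583 did not pass. Bst2, the tether that holds budding virions on the cell, was the 1 member that rose. It read 9.27, 9.45 and 9.39 in siSCR cells and 9.75, 9.63 and 9.78 in siPRMT1 cells, at 0.35 ± 0.0910 (adjusted p 0.00898). Groups did not overlap in 25 of the 36 members, 24 of them lower in siPRMT1 cells, against 35.4% of all genes in either direction and 20% lower.

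**Figure D3:**
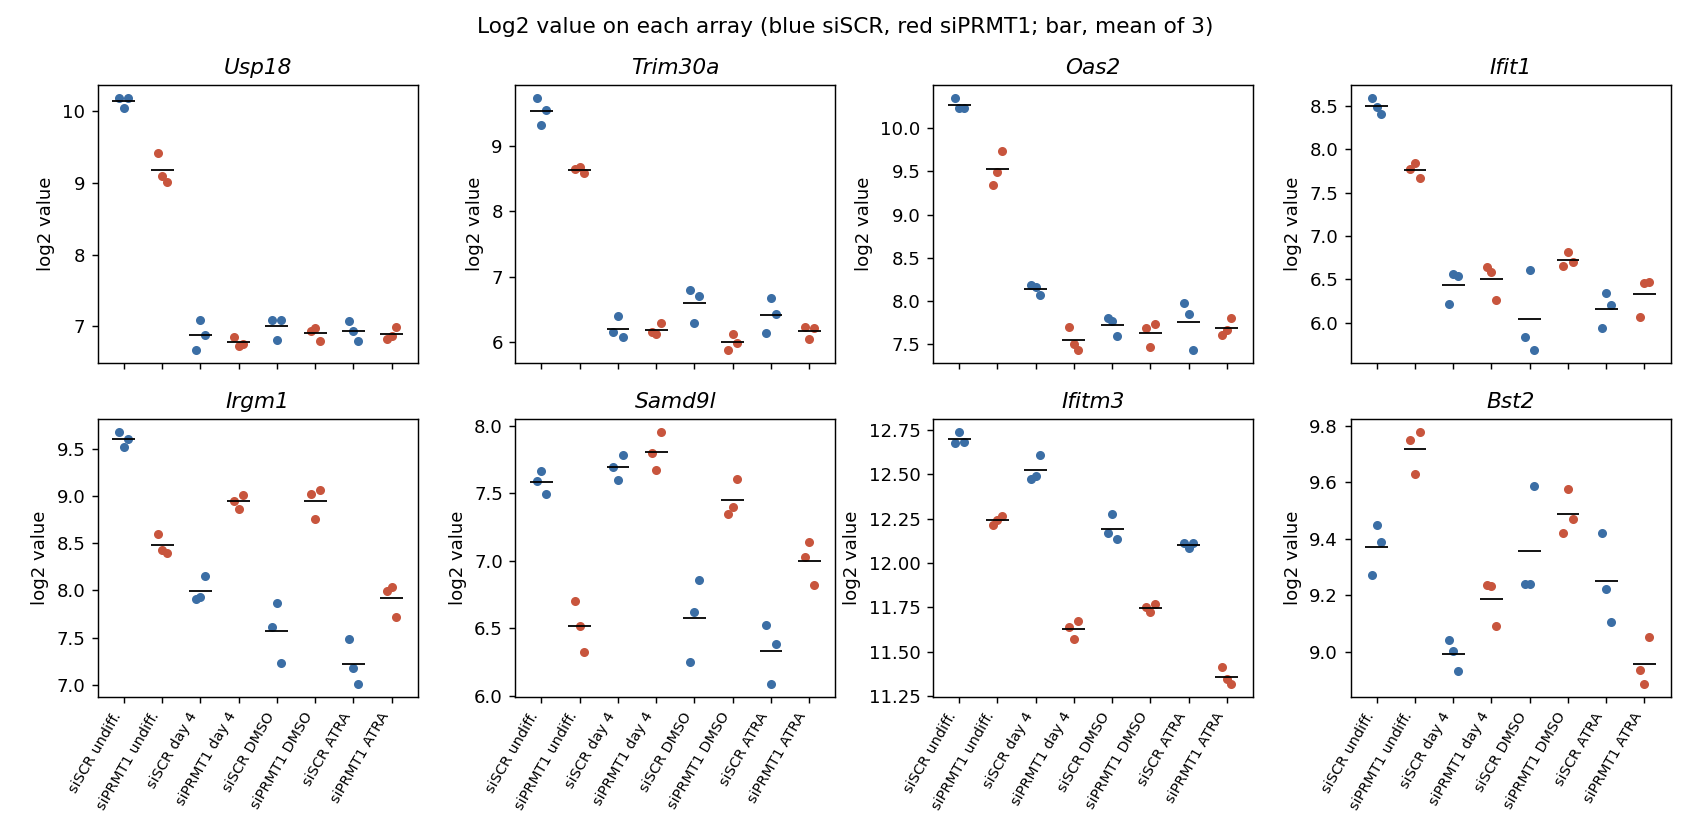
Log2 value (y axis) on each of 24 arrays for 8 members, by group; blue is siSCR, red siPRMT1, and the bar is the mean of 3 arrays. Usp18, Trim30a, Oas2 and Ifit1 drop from undifferentiated cells to embryoid bodies in both lines. Irgm1 and Samd9l rise from undifferentiated cells to untreated day 4 bodies in the siPRMT1 line, while Irgm1 is lower with ATRA than in undifferentiated cells. Ifitm3 is lower in siPRMT1 cells in every state.

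Genes around the members were read from lists chosen with earlier results in view. With the knockdown in undifferentiated cells 11.2% of all genes were called lower and 7.63% higher. Sensing genes upstream of interferon fell in 6 of 9 cases in undifferentiated cells, among them Tlr3 by 0.97, Sting1 by 0.87 and Ikbke by 0.54. Tlr3 senses double-stranded RNA and Sting1 relays cytosolic DNA. Among other interferon-stimulated genes 10 of 18 fell, including Lgals3bp by 1.11, Ifi27 by 0.92, Sp100 by 0.83 and Herc6 by 0.77. Of 10 receptor and JAK-STAT genes, Ifngr2 and Il10rb fell, by 0.31 and 0.28. Ifnb1, the first interferon made after sensing, differed by 0.20 ± 0.136 (adjusted p 0.389), and the receptor subunit Ifnar1 by 0.01 ± 0.0829. Socs3, a brake on JAK signalling, was the listed restraint gene that rose, by 0.51 ± 0.0663 (adjusted p 1.24e-05).

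In day 4 embryoid bodies the knockdown moved fewer members. Of the 36, 3 rose, 4 fell and 29 did not pass, against 18.4% of all genes called, 11.4% higher and 7.01% lower, so the members' share was close to that of all genes. The median was -0.07 against -0.02 over all genes. With each array centred on its median these medians were 0.01 and 0.07, and 21 of the 36 members lay below that of all genes under both scalings. Irgm1 rose here, and it read 7.91, 7.93 and 8.15 in siSCR bodies and 8.95, 8.87 and 9.01 in siPRMT1 bodies, at 0.95 ± 0.138 (adjusted p 4.82e-05). The order of the lines was thus the reverse of that in undifferentiated cells. Xaf1, which antagonises inhibitors of apoptosis, fell from 9.25, 9.15 and 9.18 to 8.27, 8.27 and 8.34, at -0.90 ± 0.0938 (adjusted p 7.96e-07). Ifitm3, which stops viruses at endosomal membranes, read 12.47, 12.49 and 12.61 against 11.64, 11.57 and 11.67, at -0.89 ± 0.0510 (adjusted p 2.56e-10). Both genes were separate between the lines.

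Oas2 was lower at day 4 as well, at 8.19, 8.16 and 8.07 against 7.70, 7.50 and 7.44, a difference of -0.59 ± 0.119 (adjusted p 0.00115). Rsad2, the radical SAM enzyme viperin, was higher, at 6.07, 6.32 and 6.20 against 6.88, 6.59 and 6.48, a difference of 0.46 ± 0.122 (adjusted p 0.0118). Irf1 was higher by 0.29 ± 0.0574 (adjusted p 0.00115) and Stat2 lower by a difference of -0.19 ± 0.0583 (adjusted p 0.0296), with groups that did not overlap. The calls of Rsad2 and Stat2 were lost when single arrays were left out, Stat2 also when arrays were centred, and that of Irf1 when its probe sets were averaged. Of the 22 members that fell in undifferentiated cells, 3 fell at day 4, 1 rose and 18 did not pass. Among the 9 sensing genes upstream of interferon 4 rose and 1 fell at day 4 (median 0.15). Of the 18 other interferon-stimulated genes 1 rose and 4 fell. Fibroblast markers fell in 8 of 18 cases here, with Dcn by 0.77 and Loxl1 by 0.50. Endoderm markers rose in 7 of 8 cases (median 0.75), early embryoid body and streak markers in 5 of 6 (median 0.63), and 3 of 8 embryonic stem cell markers fell. The part of these marker lists in the result was not tested. Ifitm3 was the 1 member lower in the siPRMT1 line in all 4 states, as were 0.326% of all genes.

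**Figure D4:**
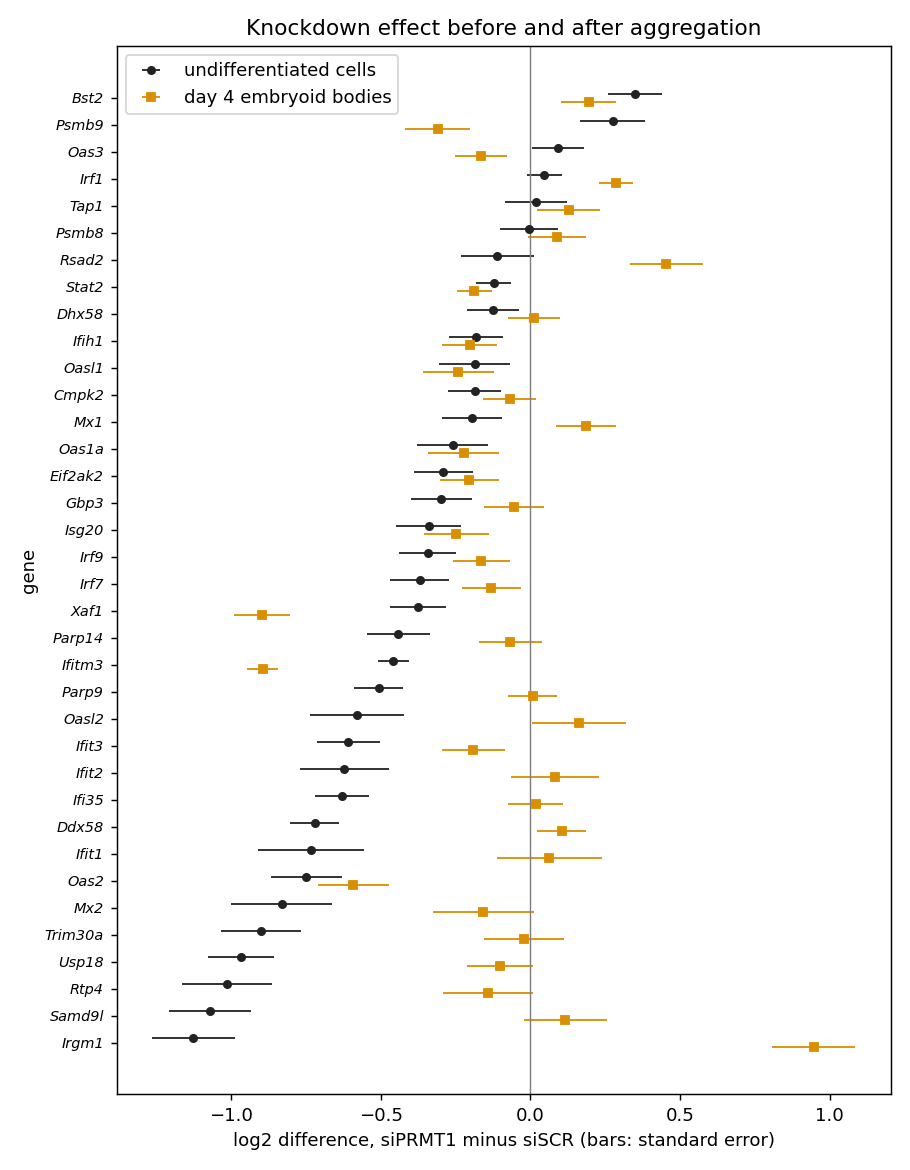
Log2 difference, siPRMT1 minus siSCR, with its standard error (x axis) for each of the 36 members (y axis, ordered by the difference in undifferentiated cells); circles are undifferentiated cells and squares day 4 embryoid bodies. Most circles lie left of 0, most squares lie near 0, and Irgm1 lies left of 0 before aggregation and right of 0 after it.

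Formation of embryoid bodies lowered most members. In the siSCR line 28 of 36 fell, 8 did not pass and none rose, against 28.2% of all genes called in either direction, 13.7% lower and 14.5% higher. Groups did not overlap in 29 members, 28 of them lower, against 40.9% of all genes and 20% lower. The median was -0.61, against 0.00067 over all genes, and 14 of the members that fell were at least 2-fold lower. In the siPRMT1 line 23 fell, 4 rose and 9 did not pass, against 41.4% of all genes called, 18.4% lower and 23% higher, with a median of -0.53 against -0.04. There 30 members had groups that did not overlap, 25 of them lower, against 57.4% of all genes and 28.9% lower. In both lines 22 members fell. The IFIT genes and the 7 genes of the OAS, PKR and RNA decay group all fell in each line. Fibroblast markers fell in 15 of 18 cases in each line, with medians of -1.13 and -0.99. Endoderm markers rose in 7 of 8 cases in siSCR and 8 of 8 in siPRMT1 cells, with medians of 0.78 and 1.33, and early embryoid body and streak markers in 4 and 6 of 6. Of 8 embryonic stem cell markers 1 rose and 1 fell in siSCR cells, and 4 fell in siPRMT1 cells. The part of these marker lists in the result was not tested.

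Trim30a fell most, from the undifferentiated values above to 6.15, 6.39 and 6.07 in siSCR bodies, at -3.33 ± 0.134 (adjusted p 8.83e-14), or 10.1-fold. In siPRMT1 bodies it read 6.15, 6.12 and 6.28, at -2.45 ± 0.134, so both lines ended at overlapping levels. Usp18 came down to 6.67, 7.09 and 6.88 in siSCR bodies and 6.85, 6.73 and 6.75 in siPRMT1 bodies, at -3.26 ± 0.111 and -2.40 ± 0.111. Mx2 ended at 5.34, 5.84 and 5.35 against 5.52, 5.28 and 5.26, after changes of -2.64 ± 0.169 and -1.96 ± 0.169. These end values overlap between the lines in all 3 genes, while the starting values did not.

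Oasl2, a relative of the OAS enzymes that boosts RNA sensing, fell from 9.56, 9.52 and 9.61 to 6.82, 7.45 and 7.13 in siSCR cells and from 9.10, 8.81 and 9.04 to 7.29, 7.43 and 7.18 in siPRMT1 cells. The changes were -2.43 ± 0.156 and -1.69 ± 0.156. Rtp4 came down to 6.54, 6.73 and 6.69 and to 6.54, 6.48 and 6.52, by changes of -2.36 ± 0.151 and -1.49 ± 0.151. At day 4 the lines differed in Rtp4 by -0.14 ± 0.151, which did not pass. Ifit3 fell from 8.07, 7.69 and 7.70 to 5.30, 5.51 and 5.62 and from 7.33, 7.10 and 7.20 to 5.32, 5.22 and 5.31, at -2.34 ± 0.106 and -1.92 ± 0.106. Oas2 changed by -2.13 ± 0.119 and -1.98 ± 0.119, and Ifit1 by -2.06 ± 0.176 to 6.22, 6.56 and 6.53 and by -1.26 ± 0.176 to 6.65, 6.59 and 6.26. For these 8 genes the limma adjusted p was 6.49e-06 or smaller in each line.

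Samd9l went the other way in 1 line. It rose in siPRMT1 cells from 6.70, 6.52 and 6.32 to 7.80, 7.67 and 7.95, at 1.30 ± 0.137 (adjusted p 1.62e-07), while siSCR cells went from 7.59, 7.66 and 7.49 to 7.69, 7.60 and 7.78, at 0.11 ± 0.137 (adjusted p 0.681). The other members that rose in siPRMT1 cells were Irgm1 at 0.47, Irf1 at 0.38 and Rsad2 at 0.34. Members that did not pass in siSCR cells included Stat2, Ifih1, Cmpk2, Psmb8 and Psmb9.

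The 2 responses were then compared directly, as the change in siPRMT1 cells minus that in siSCR cells. This difference passed in 18 of 36 members, 15 upward and 3 downward, against 23.8% of all genes called with 15% upward and 8.83% downward, and with a median of 0.24 against -0.02. It equals the knockdown difference at day 4 minus that in undifferentiated cells, so it shares all its arrays with the comparisons above. Prmt1 itself had an upward difference of 0.74 ± 0.0865 (SE; limma adjusted p 2.64e-06). It stood at 38.6% of the siSCR level in undifferentiated cells and 64.6% at day 4. The part of this weaker knockdown at day 4 in the members' differences was not tested. Irgm1 had the greatest difference of responses, 2.07 ± 0.196 (adjusted p 2.09e-07), followed by Samd9l at 1.19 ± 0.194 and Trim30a at 0.88 ± 0.190. Rtp4 at 0.87, Usp18 at 0.86, Ddx58 at 0.83, Ifit1 at 0.80 and Oasl2 at 0.74 came next. Some of these members had come down to low values by day 4, where a log2 difference can understate the change. Trim30a averaged 6.21 in siSCR and 6.18 in siPRMT1 bodies, Rtp4 6.65 and 6.51, and Ifit1 6.44 and 6.50. Others stayed higher, with Ddx58 at 9.87 and 9.97 and Irgm1 at 8.00 and 8.94. Of the 22 members lower in undifferentiated siPRMT1 cells, 13 had an upward difference of responses. The values that picked these 22 are subtracted in the difference, so the choice itself favours upward ones. The count is a description only. Downward differences were those of Psmb9, Xaf1 and Ifitm3. The fibroblast markers had 6 upward and 1 downward of 18, the endoderm markers 6 upward of 8, the early embryoid body and streak markers 5 upward of 6 and the embryonic stem cell markers 4 downward of 8. The part of these lists was not tested. The calls of Ifit1 and Oasl2 were lost when 1 of several single arrays was left out.

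Pathway genes followed on embryoid body formation. Sting1 fell in both lines, by 1.61 in siSCR and 1.02 in siPRMT1 cells, and Tlr3 by 1.31 in siSCR cells. Of the 9 sensing genes 5 fell and 1 rose in siSCR cells (median -0.30), while in siPRMT1 cells Sting1 fell, 2 rose and 8 of 9 lay above 0 (median 0.03). B2m, the light chain of MHC class I, fell by 0.94 and 0.88. Ifi27, Herc6 and Lgals3bp fell by 2.35, 2.10 and 1.86 in siSCR cells, and they changed by -1.79, -1.24 and -0.84 in siPRMT1 cells. Socs3 fell in siPRMT1 cells by 2.02 ± 0.0663 and in siSCR cells by 0.54 ± 0.0663, and it differed between lines at day 4 by -0.97 ± 0.0663. Of the listed interferon pathway genes outside the members, 24 of 53 fell and 7 rose in siSCR cells, against 20 and 9 in siPRMT1 cells. Of all genes 13.7% were lower and 14.5% higher in siSCR cells, and 18.4% lower and 23% higher in siPRMT1 cells.

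With DMSO and with ATRA the knockdown comparison sets the 6 arrays that stood apart against others, so these counts are read with that limit. Of the 36 members 7 rose and 12 fell with DMSO, against 65.9% of all genes called, 31.3% higher and 34.6% lower. With ATRA 7 rose and 10 fell, against 70.1% of all genes, 32.2% higher and 38% lower. Both shares of members were below those of all genes. Centring each array on its median gave 13 up and 11 down with DMSO and 9 up and 5 down with ATRA, and it shifted the median of all genes by 0.11 and 0.13. Irgm1 was higher with DMSO, at 7.61, 7.87 and 7.23 in siSCR and 9.03, 8.75 and 9.06 in siPRMT1 bodies, a difference of 1.38 ± 0.138. Samd9l was at 6.25, 6.62 and 6.86 against 7.34, 7.39 and 7.61, a difference of 0.87 ± 0.137. The 2 lines did not overlap in either gene. Ifit3 was lower, at 5.95, 6.14 and 6.26 against 5.31, 5.36 and 5.14, a difference of -0.85 ± 0.106, and Psmb9, an immunoproteasome subunit, at 9.18, 9.05 and 9.16 against 8.27, 8.38 and 8.25, a difference of -0.83 ± 0.109. Oasl2, Ifit1 and Ddx58 were higher by 0.69, 0.68 and 0.61, and Mx2 was lower at -0.66. Limma adjusted p was 0.00211 or smaller for these 8 members.

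With ATRA, Oasl2 read 7.24, 7.65 and 7.52 in siSCR and 8.40, 8.36 and 8.34 in siPRMT1 bodies, a difference of 0.90 ± 0.156. Psmb9 read 9.00, 9.43 and 9.28 against 8.39, 8.39 and 8.67, and Ifitm3 12.11, 12.08 and 12.11 against 11.41, 11.35 and 11.31, at -0.75 ± 0.109 and -0.74 ± 0.0510. The lines were separate in all 3 genes. Irgm1, Samd9l and Ddx58 were higher by 0.69, 0.66 and 0.65, and Mx1 and Ifit3 lower at -0.62 and -0.48, with limma adjusted p of 0.000473 or smaller for the 8 genes. The call of Ifit3 was lost under quantile normalization and with 1 SD per array. Receptor and JAK-STAT genes were higher in 9 of 10 cases in each state, with Ifnar2 at 1.09 and 1.19 and Ifngr2 at 0.97 and 1.27. Fibroblast markers were higher in 2 and lower in 6 of 18 in each. Endoderm markers were higher in 7 of 8 in each, early embryoid body and streak markers in 6 and 4 of 6, and embryonic stem cell markers were lower in 5 and higher in 1 of 8 in each. The part of these lists was not tested.

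Against untreated day 4 bodies, DMSO bodies of the siPRMT1 line differed in 1 of 36 members, Irf1 at 0.28 ± 0.0574 (limma adjusted p 0.0323), against 0.461% of all genes and 0.306% higher. Irf1 read 9.89, 9.85 and 9.79 in day 4 and 10.07, 10.14 and 10.14 in DMSO bodies, and the call was lost when any 1 of these 6 arrays was left out. In the siSCR line, where the DMSO arrays belong to the 6 that stood apart, 10 members rose and 10 fell, against 61.1% of all genes, 30.8% higher and 30.3% lower. Samd9l changed by -1.11, Xaf1 by -0.75, Ddx58 by -0.68 and Irgm1 by -0.43, and Ifit3 by 0.64, Rsad2 by 0.57, Mx1 by 0.53 and Psmb9 by 0.53. Fibroblast markers fell in 10 and rose in 3 of 18 cases there (median -0.20), and their part was not tested.

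ATRA was compared with DMSO within each line. In siSCR bodies 1 member rose and 3 fell, against 23.4% of all genes called, 11.2% higher and 12.2% lower, and in siPRMT1 bodies 2 rose and 7 fell, against 12%, 6.05% higher and 5.94% lower. Fibroblast markers rose in 1 and fell in 2 of 18 cases in siSCR bodies, and rose in 2 and fell in 3 in siPRMT1 bodies. Endoderm markers rose in 1 and fell in 4 of 8 in siSCR bodies and rose in 1 and fell in 2 in siPRMT1 bodies, early embryoid body and streak markers fell in 2 and 4 of 6, and embryonic stem cell markers fell in 3 of 8 in each. The part of these lists was not tested. Ddx58, whose protein RIG-I is named for its induction by retinoic acid, fell in both lines. It read 9.21, 9.35 and 9.00 with DMSO and 8.02, 8.11 and 7.99 with ATRA in siSCR bodies, at -1.15 ± 0.0828 (adjusted p 4.37e-09). In siPRMT1 bodies it read 9.79, 9.74 and 9.85 against 8.77, 8.80 and 8.50, at -1.10 ± 0.0828 (adjusted p 4.31e-09). The treatments did not overlap in either line. Xaf1 fell in both lines, at -0.63 and -0.35, and Irf9 was called lower in siSCR bodies at -0.27, while Gbp3, a guanylate-binding GTPase, rose there by 0.47. The Irf9 groups overlapped, at 8.53 to 8.61 with DMSO and 8.06 to 8.64 with ATRA. Without siSCR DMSO replicate 1 the siSCR count was 9 in place of 4.

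In siPRMT1 bodies Irgm1 fell with ATRA, from 9.03, 8.75 and 9.06 to 7.99, 8.04 and 7.72, at -1.03 ± 0.138 (adjusted p 1.65e-05). Oasl2 rose from 7.76, 7.77 and 7.67 to 8.40, 8.36 and 8.34, at 0.63 ± 0.156 (adjusted p 0.00845). Both members were separate between treatments. Bst2 at -0.53, Samd9l at -0.45, Ifitm3 at -0.39, Irf1 at -0.36 and Xaf1 at -0.35 fell, and Parp9 rose by 0.29. The calls of Samd9l and Xaf1 were lost when 1 of several single arrays was left out. The response to ATRA differed between the lines in 2 members, Irf1 at -0.40 ± 0.0811 (adjusted p 0.00759) and Ifitm3 at -0.30 ± 0.0722 (adjusted p 0.0260), against 3.24% of all genes and 1.32% lower. The lines' responses are set across the border between the 6 arrays and the rest, and the count was 0 in a fit of these groups alone, with 9 members at unadjusted p under 0.05 in the fit of all groups.

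Members that changed little were also on record. Cmpk2 ranged from 6.08 to 6.62 over the 24 arrays, Stat2 from 9.35 to 9.74 and Ifih1, the sensor MDA5, from 5.94 to 6.69. In all, 9 members (Ifit2, Ifit3, Mx1, Mx2, Ifih1, Dhx58, Rsad2, Cmpk2 and Psmb8) lay in the dimmest 25% of genes by their mean, where a log2 difference can understate the change. That mean includes the undifferentiated arrays, so members that were low only in embryoid bodies are not among them. At day 4 Trim30a averaged 6.21 and 6.18, Rtp4 6.65 and 6.51 and Ifit1 6.44 and 6.50 in siSCR and siPRMT1 bodies. The 24-array mean of Psmb8 was 6.59. Leaving out the 6 arrays that stood apart gave the same count of 22 lower and 1 higher for the knockdown in undifferentiated cells and of 28 lower on embryoid body formation in siSCR cells. It gave 17 up and 4 down for the difference of the lines' responses and 4 up and 6 down for the knockdown at day 4.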

How the data were processed

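Total RNA (300 ng per array, per the labels' protocols) was labelled as biotinylated cDNA and measured on 24 one-colour arrays, 3 in each of 8 groups. The authors deposited 1 table of log2 values for 35556 probe sets; its background correction and normalization are not given in the sources used here. Symbols came from GEO's platform annotation: 21789 probe sets had 1 symbol, 1621 several and 12146 none. Where a gene had several sets, the one with the highest mean over the arrays was used, which left 19938 genes.

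One limma fit (limma 3.58.1, R 4.3.3) of 8 group means, with 16 residual degrees of freedom and eBayes, gave every difference, its SE and its p. P-values were adjusted by Benjamini-Hochberg over all genes within each of 12 comparisons and called under 0.05. The fit was checked on simulated data. The members, the pathway and marker lists and the tests were chosen with earlier results of these data known. In each comparison the members given with every array are up to 8 with the greatest absolute change among those called whose groups do not overlap; differences of responses are ranked by size alone. Pathway genes are named from those called, up to 4 per list, and a few more are named beside them with their values. The genes whose promoters are printed were chosen after their values were seen. Promoters are RefSeq's. The number of arrays limits the precision. Alternatives were other scalings, probe-set rules, filters, variance models, subsets of groups, a replicate block and leaving out each array.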

Additional observations from a re-analysis of the deposited data

Results flagged for a closer look

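A test of the difference between the lines' responses picked out members whose change on embryoid body formation was not the same in siPRMT1 and siSCR cells (limma, adjusted p under 0.05). Upward differences, siPRMT1 minus siSCR, were 2.07 for Irgm1, 1.19 for Samd9l, 0.88 for Trim30a, 0.87 for Rtp4, 0.86 for Usp18, 0.83 for Ddx58, 0.80 for Ifit1, 0.74 for Oasl2, 0.70 for Ifit2, 0.67 for Mx2, 0.65 for Ifi35, 0.56 for Rsad2, 0.52 for Parp9, 0.42 for Ifit3 and 0.24 for Irf1. Downward differences were -0.59 for Psmb9, -0.52 for Xaf1 and -0.44 for Ifitm3. Prmt1 itself differed by 0.74, as its knockdown was weaker at day 4, and the part of this was not tested. Some members with an upward difference, such as Trim30a and Ifit1, had come down to low values by day 4. A log2 difference can understate the change there. For Irgm1 the siSCR line changed by -1.61 and the siPRMT1 line by 0.47, so that it fell in one and rose in the other. A dimmer second set of Irf1 gave -0.23 ± 0.166 for the difference of responses.

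The same test on the response to ATRA picked out Irf1 at -0.40 and Ifitm3 at -0.30. Prmt1 itself differed by -0.33 there, and the part of this was not tested. Irf1 changed by 0.04 in siSCR and by -0.36 in siPRMT1 bodies, and Ifitm3 by -0.09 and -0.39. The siSCR side of this test comes from the 6 arrays that stood apart.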

How the results depend on the processing

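The total counts of members called, higher and lower together, for the knockdown in undifferentiated cells, with DMSO and with ATRA, for embryoid body formation in either line and its difference, and for DMSO in siSCR cells stayed within 1.5 times their value under every alternative run, and no named member changed direction. Counts in 1 direction moved more: with DMSO the members higher with the knockdown went from 7 to 13 under median centring or quantile normalization and to 12 with 1 SD per array. With ATRA those lower went from 10 to 5 under median centring and to 6 with 1 SD per array or without the dimmest 25% of genes, and those higher from 7 to 4 with the compared groups alone. The members higher with DMSO in siSCR cells went from 10 to 6 with 1 SD per array and to 5 without the dimmest 25% of genes. The 1 member higher with the knockdown in undifferentiated cells became 0 without siSCR replicate 1 and 2 with array weights, with the replicate block or without siPRMT1 replicate 1. Over named members and alternatives, 1197 calls held and 53 were lost. Leaving out 1 array gave 17 to 22 members called for the knockdown in undifferentiated cells, 5 to 7 at day 4, 18 to 19 with DMSO, 13 to 16 with ATRA, 26 to 28 for embryoid body formation in siSCR and 25 to 27 in siPRMT1 cells, 13 to 17 for the difference of responses, 14 to 19 for DMSO in siSCR cells, 4 to 9 and 7 to 8 for ATRA in siSCR and siPRMT1 bodies and 1 to 5 for the difference of the ATRA responses. For DMSO in siPRMT1 bodies the 1 call became 0 without any single array, with median centring, with 1 SD per array and with averaged probe sets (8 members had an unadjusted limma p under 0.05 in the fit as reported), 2 without the 6 arrays that stood apart and 9 with array weights. Array weights gave 13 calls for the knockdown at day 4, 23 for ATRA in siPRMT1 bodies and 1 for the difference of ATRA responses, which was also 1 with median centring or averaged probe sets, 4 with trend and robust variance and 0 with the compared groups alone; that last setting, with fewer arrays, gave 1 for ATRA in siSCR bodies. Other causes were not tested. With the replicate number as a block, the knockdown in undifferentiated cells gave 24 calls and that at day 4 gave 8; deviations of same-numbered arrays correlated at -0.50 to 0.51 over the comparisons of 2 groups, in none of which all 3 pairs were above 0.1, so the numbers were not taken to pair the arrays. Median centring shifted the median of all genes by 0.12 for embryoid body formation in siPRMT1 cells, where 6 members rose and 21 fell.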

Other observations

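Probe sets that members share with another gene, left out of the counts, gave values of their own. The set of Irgm2 and Igtp, both immunity-related GTPases, changed by -0.37 ± 0.0904 (SE) with the knockdown in undifferentiated cells and by -1.08 and -0.72 on embryoid body formation in siSCR and siPRMT1 cells. The set of Gbp2 and Gbp2b changed by -2.00 ± 0.158 and -0.72 ± 0.158 on embryoid body formation in siSCR and siPRMT1 cells. With the knockdown it differed by -0.26 in undifferentiated cells, 1.02 at day 4, 1.05 with DMSO and 1.56 with ATRA. The set of Oas1a and Oas1g differed by -0.98 ± 0.0976 in undifferentiated cells, where the set of Oas1a alone gave -0.26 ± 0.119. A dimmer second set of Irf1 gave -0.10 ± 0.117 for the knockdown at day 4, where the brighter set gave 0.29 ± 0.0574. For the difference of responses on embryoid body formation this second set gave -0.23 ± 0.166, against 0.24 ± 0.0811 from the brighter set. In siPRMT1 cells it gave -0.11 on embryoid body formation, 0.06 for DMSO against untreated bodies and -0.0016 for ATRA against DMSO. For the difference of the ATRA responses it gave -0.29 ± 0.166, against -0.40 ± 0.0811.

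Within groups the members did not move as a block from array to array. After removing group means, the median correlation over 630 pairs of members was 0.0125, and 52.2% of the pairs were above 0. The pairs share arrays, and this is a description only.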
